A study of Lumnitzera littorea with 6 samples.

Results

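Among the gene models of the mangrove tree Lumnitzera littorea, 174 of 26139 took a large and nearly equal share of the reads in every library of a chilling experiment. They were chosen from the counts themselves. Counts were divided by the column total and multiplied by 1000000, which gives a gene model's reads per 1000000 reads counted (CPM). A member had at least 100 CPM in all 6 libraries, and its highest CPM was at most 1.5 times its lowest. At least 100 CPM in every library was reached by 814 gene models, so that 21.4% of these were also steady by the limit of 1.5. The libraries came from wild-type seedlings 1 year old, kept with 12 h of light and 12 h of dark. The chilling group had days of 8°C and nights of 5°C (n = 3), for a time that the labels do not state. The control group had days of 25°C and nights of 23°C for 48 h (n = 3). Leaves, shoots and roots went into each library in unstated proportions, and the labels do not tie each library to a plant of its own. Values of spread may therefore be partly technical.

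A reference transcript is one whose level is taken as constant, so that other transcripts can be expressed relative to it, as in quantitative PCR. In plants under cold, such transcripts have to hold through a wide reorganisation of the transcriptome, and a candidate is usually judged by its spread over conditions and by its ratio to other candidates. CPM is a share of a library: a transcript whose amount is constant gains share when others lose it. Trimmed mean of M-values (TMM) scaling instead assumes that most transcripts do not change and multiplies each library size by a factor. Neither scale measures RNA per cell, and in these mixed organs fewer cells of a type and less RNA per cell cannot be told apart. The table pairs no identifier with a gene name, and no functions, positions or sequences are given here. Transcript lengths were not used, so CPM compares a gene model with itself across libraries and not with another gene model.

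Total counts were 27982493 to 31610174 in chilling and 36161485 to 41203847 in control libraries, with no overlap. TMM factors were 0.848, 0.865 and 0.979 in chilling replicates 1 to 3, against 1.15, 1.16 and 1.04 in control replicates 1 to 3. Depth and TMM factor thus both moved with the group. The difference in depth was removed by thinning every library to the smallest total, and then 171 gene models met the limits, 168 of them among the 174. Random thinning keeps each gene model's expected share of its library, so only counting error could change the list. It therefore cannot separate depth from group. Organ markers could not be read, because the identifiers carry no names.

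The values in this paragraph describe the choice and are no test of it. The highest to lowest CPM of the 174 gene models had a median of 1.38, from 1.12 to 1.498, against a median of 2.22 in the other 640 gene models at 100 CPM or more. Their coefficient of variation over the 6 libraries had a median of 11.8%, from 4.59% to 18.6%. Counting alone gives little of this. The lowest count of a member in a library was 2850, where the counting error is 1.87% of the value. Within a group, the median ratio was 1.201 among chilling libraries and 1.18 among control libraries, so that libraries of 1 group already differed by part of the allowed amount. The ratio was the larger within chilling for 96 of the 174. Together the members held 3.73%, 3.86% and 3.91% of counts in chilling replicates 1 to 3, against 3.93%, 3.90% and 3.66% in control replicates 1 to 3. These shares averaged 3.83% ± 0.094 in chilling and 3.83% ± 0.15 in control libraries (SD, n = 3 each). Most members lay near the floor. Mean CPM was between 100 and 200 in 126 of them, and 800 or more in 5. Of the gene models at 100 CPM or more, members made up 38.3% in the band from 100 to 200 CPM, 13.7% from 200 to 400, 6.38% from 400 to 800 and 5.21% at 800 or more. In the lowest band the floor itself limits how far a value can lie below the mean.

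The lowest ratio belonged to gene.evm.model.31.97, at 1.12. It had 178, 200.2 and 187 CPM in chilling replicates 1 to 3, against 187, 199.6 and 184 in control replicates 1 to 3. The groups overlapped fully, with means of 189 ± 11.0 in chilling and 190.4 ± 8.14 in control libraries (SD, n = 3 each). gene.evm.model.26.179 followed with a ratio of 1.13 and had 123, 121 and 134 CPM in chilling replicates 1 to 3, against 137, 122 and 126 in control replicates 1 to 3. gene.evm.model.64481.134 had 172, 157 and 175 CPM in chilling replicates 1 to 3, against 154, 174 and 169 in control replicates 1 to 3, a ratio of 1.14. In both, the lowest and the highest library did not mark out a group: the highest of gene.evm.model.26.179 was control replicate 1, and its lowest was chilling replicate 2. gene.evm.model.2.97 had 106, 107 and 103 CPM in chilling replicates 1 to 3, against 118, 113 and 108 in control replicates 1 to 3, a ratio of 1.14. By column total its chilling libraries all lay below its control libraries, though by less than the allowed span. gene.evm.model.2.135 had 122, 116 and 108 CPM in chilling replicates 1 to 3, against 121, 123 and 121 in control replicates 1 to 3, and chilling replicate 3 was its lowest library. gene.evm.model.45.82 had 172, 189 and 181 CPM in chilling replicates 1 to 3, against 189, 197 and 175 in control replicates 1 to 3, with overlapping groups. On TMM-scaled CPM every chilling library lay above every control library in all of these 6 but gene.evm.model.2.135, whose groups overlapped. For gene.evm.model.2.97 the order thus turned round, and control replicate 2 fell below the floor, at 97.7 TMM-scaled CPM. The ratio of gene.evm.model.64481.134 was 1.52 under TMM, over the limit, and the ratios of the others stayed within it. The dot plot of these 6 gene models shows the same libraries on both scales.

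**Figure D1:**
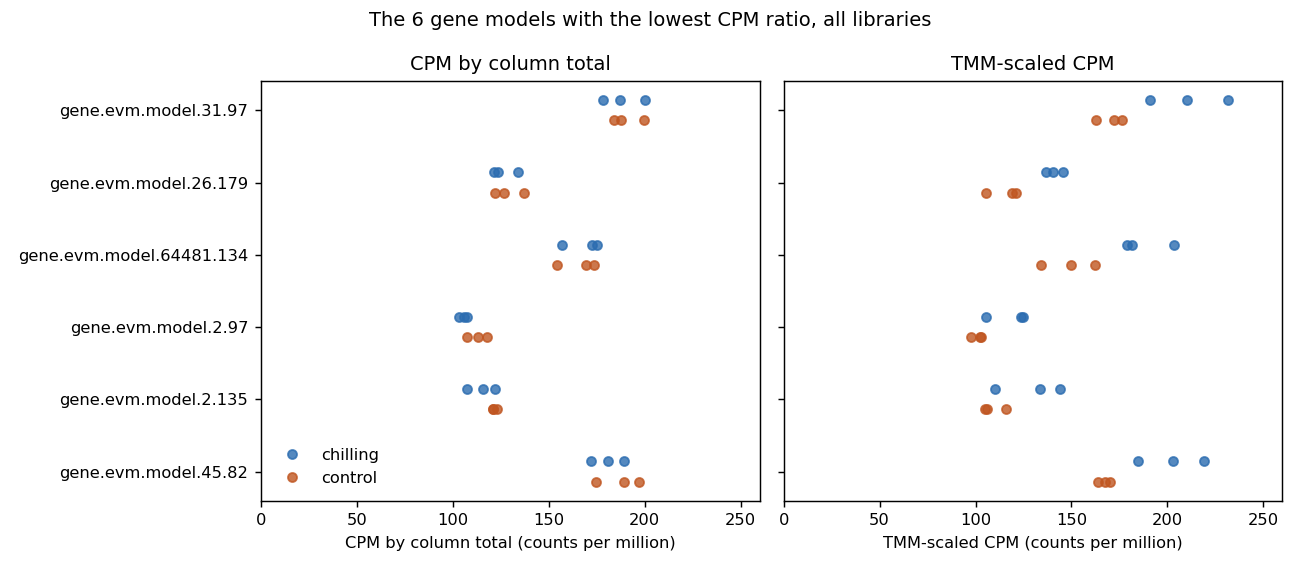
CPM by column total (left) and TMM-scaled CPM (right) of the 6 gene models with the lowest CPM ratio; each dot is 1 library, chilling above control in each row. On the left the groups overlap or nearly touch, and on the right the dots of gene.evm.model.31.97 lie at 191 to 231 in chilling and 163 to 176 in control libraries.

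The members with the most reads were steady on column totals, and all 4 of them left the limit under TMM. gene.evm.model.3.106 had 1478, 1475 and 1627 CPM in chilling replicates 1 to 3, against 1337, 1548 and 1364 in control replicates 1 to 3, a ratio of 1.22. gene.evm.model.14.807 had 1369.9, 1388 and 1176 CPM in chilling replicates 1 to 3, against 1279, 1153 and 1044 in control replicates 1 to 3, a ratio of 1.33. Both had overlapping groups on this scale. gene.evm.model.82.14 had 1329, 1291 and 1188 CPM in chilling replicates 1 to 3, against 1122, 987 and 938 in control replicates 1 to 3, and gene.evm.model.4.320 had 1099, 1021 and 1009 CPM in chilling replicates 1 to 3, against 884, 829 and 739 in control replicates 1 to 3. In these 2, every chilling library lay above every control library even by column total. With TMM scaling the ratios of the 4 gene models were 1.503, 1.62, 1.84 and 1.83 in the order given. Their fitted log2 fold changes under TMM were 0.43 ± 0.26, 0.51 ± 0.27, 0.65 ± 0.26 and 0.68 ± 0.25 (chilling over control, ± SE, n = 3 each), and edgeR's quasi-likelihood test gave adjusted p = 0.239, 0.19, 0.101 and 0.0779, none past 0.05. DESeq2, on its own scale, instead called all 4, with adjusted p = 0.0074, 0.0267, 0.0018 and 0.00028, where it called 42.3% of tested gene models. On column totals the 4 log2 fold changes kept their sign, at 0.11, 0.18, 0.32 and 0.35.

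The members were held to 1.5 on column totals, so another scale is likely to widen their ratios, and the values under TMM are a description. The ratio of highest to lowest TMM-scaled CPM had a median of 1.48, from 1.13 to 1.97, and 91 of the 174 (52.3%) stayed within 1.5. Of the other 640 abundant gene models, chosen for a ratio over 1.5 on column totals, 85 (13.3%) came within 1.5. The ratio grew under TMM in 127 members and shrank in 47. The median coefficient of variation was 15.2%, in place of 11.8%. The shift followed the factors, whose geometric means differ 1.247-fold between the groups. The median deviation of the members from their own mean, in log2 CPM by column total, was -0.06, -0.03 and 0.0036 in chilling replicates 1 to 3, against 0.08, 0.06 and -0.07 in control replicates 1 to 3. On TMM-scaled CPM it was 0.18, 0.18 and 0.03 in chilling replicates 1 to 3, against -0.13, -0.16 and -0.14 in control replicates 1 to 3. By column total, the highest library of a member was spread over both groups, with 41 members highest in chilling replicate 3 and 42 in control replicate 1. After TMM scaling, 166 members were highest in a chilling library and 8 in a control library. Chilling replicate 3, whose factor is nearest to those of the control group, was lowest for 21 members on that scale, against 1 for chilling replicate 1 and 3 for chilling replicate 2.

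**Figure D2:**
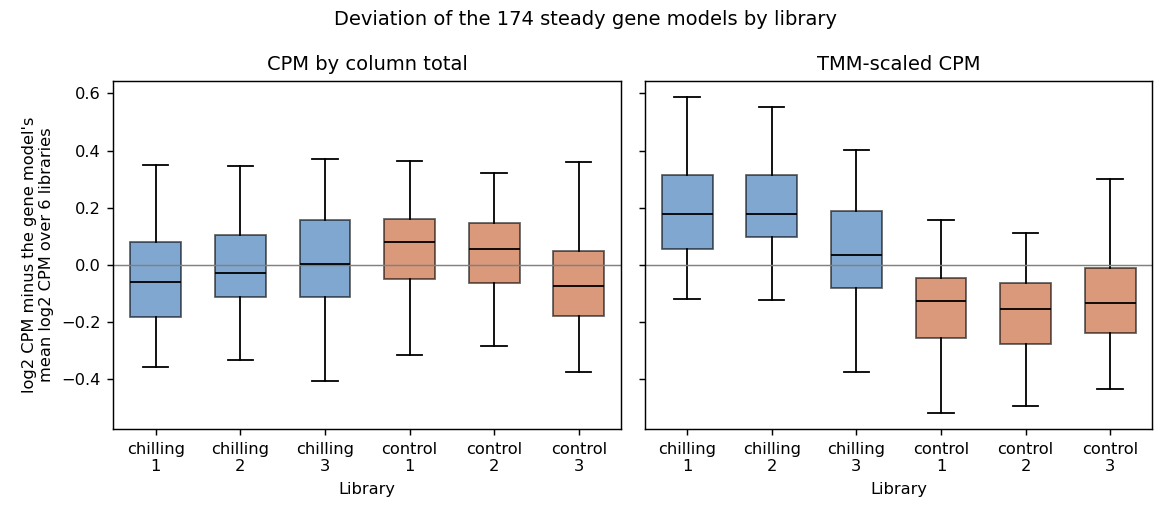
Log2 CPM of each of the 174 gene models minus its own mean over the 6 libraries, by column total (left) and TMM-scaled (right); boxes give the quartiles and median, whiskers the lowest and highest gene model. Medians lie between -0.07 and 0.08 on the left, and on the right the chilling medians are 0.03 to 0.18 and the control medians -0.16 to -0.13.

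**Figure D3:**
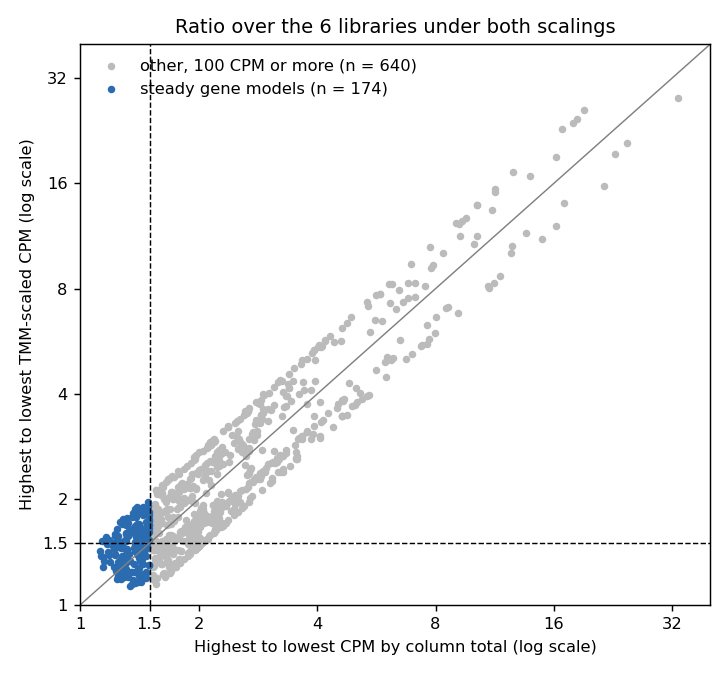
Highest to lowest CPM over the 6 libraries for the 814 gene models at 100 CPM or more, by column total (horizontal, log scale) and TMM-scaled (vertical, log scale); dashed lines mark 1.5 and the solid line equal ratios. The 174 members fill the strip left of the dashed line, 91 of them below the horizontal one, and 85 of the other 640 lie below it to the right.

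A list chosen afresh on TMM-scaled CPM, with the same floor and limit, held 199 gene models. It shared 88 with the 174, which is 50.6% of the members and 44.2% of the list on TMM-scaled CPM. The same widening held the other way round: the ratio of these 199 had a median of 1.35 on TMM-scaled CPM and 1.54 by column total, where 109 of them passed 1.5 and 187 had a negative log2 fold change. A ratio within 1.5 was reached under TMM by 3 further members that fell below 100 TMM-scaled CPM in a library. With median-of-ratios factors 89 members kept a ratio within 1.5, and with upper-quartile factors 138 did. The limits were met on column totals, TMM, median-of-ratios and upper-quartile scales alike by 87 members, which is 50.0% of the set. These 4 scales share the same counts, so the count describes the choice of scale only.

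A few members were steady on both scales at a tighter limit. A highest value at most 25% above the lowest held for 29 members by column total, for 27 under TMM and for 3 under both. gene.evm.model.64486.237 had 141, 137 and 145 CPM in chilling replicates 1 to 3, against 169, 163 and 151 in control replicates 1 to 3, and its ratio was 1.24 by column total and 1.18 under TMM. gene.evm.model.33.187 had 113, 120.4 and 113 CPM in chilling replicates 1 to 3, against 141, 135 and 127 in control replicates 1 to 3, with ratios of 1.24 and 1.21. gene.evm.model.27.102 had 115, 109 and 114 CPM in chilling replicates 1 to 3, against 134, 131 and 113 in control replicates 1 to 3, with ratios of 1.232 and 1.247. In all 3 the chilling libraries lay below the control libraries by column total, apart from an overlap in gene.evm.model.27.102 at control replicate 3. Their log2 fold changes therefore depend on the scale: under TMM they were 0.13, 0.11 and 0.16, and on column totals -0.19, -0.22 and -0.17. gene.evm.model.7.184, gene.evm.model.64446.91 and gene.evm.model.41.38 came next, with larger ratios of 1.252, 1.27 and 1.28 over the 2 scales. For gene.evm.model.41.38 the libraries had 259.7, 283 and 278 CPM in chilling replicates 1 to 3, against 324, 297 and 284 in control replicates 1 to 3. gene.evm.model.64446.91 had 283, 297 and 295 CPM in chilling replicates 1 to 3, against 359, 335 and 336 in control replicates 1 to 3, and gene.evm.model.7.184 had 236, 254 and 233 CPM in chilling replicates 1 to 3, against 292, 288 and 263 in control replicates 1 to 3. All 3 were lower in every chilling library than in any control library by column total, gene.evm.model.41.38 by a narrow gap. On TMM-scaled CPM the groups overlapped in gene.evm.model.64446.91 and gene.evm.model.7.184, as they did in gene.evm.model.33.187 and gene.evm.model.27.102. The separation turned round in gene.evm.model.41.38 and likewise in gene.evm.model.64486.237, where every chilling library lay above every control library on TMM-scaled CPM. For gene.evm.model.41.38 the values on that scale were 306, 328 and 284 TMM-scaled CPM in chilling replicates 1 to 3, against 281, 257 and 272 in control replicates 1 to 3. gene.evm.model.64486.237 had 167, 158 and 148 TMM-scaled CPM in chilling replicates 1 to 3, against 147, 141 and 145 in control replicates 1 to 3.

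In the fit across all gene models with TMM scaling, fitted log2 fold changes of the members were positive in 171 and negative in 3, with a median of 0.29 and a range from -0.06 to 0.76. The SE of a member had a median of 0.19. Of all 19487 gene models tested, 49.0% had a positive log2 fold change under TMM, and the median was -0.02. On column totals the members' median was -0.02, with 75 positive and 99 negative, and the median over all tested gene models was -0.33. The rule keeps members near 0 on column totals, and rescaling moves all gene models together. The distance of the members from the median tested gene model thus follows from the rule and from where that median lies on column totals. Past an adjusted p of 0.05 under TMM were 9 of the 174 members, all higher in chilling (edgeR quasi-likelihood test), where 30.8% of all tested gene models were called, 16.2% higher and 14.6% lower. No member was called lower, none was lower at an unadjusted p under 0.05, and DESeq2 and limma-voom called none lower. On column totals edgeR called 0 members, with 1 at an unadjusted p under 0.05, where 35% of tested gene models were called. On its own scale DESeq2 called 49 members (42.3% of tested gene models). With the TMM factors limma-voom called 13 (29.6%). The same counts chose the members, so nothing is read from these shares. A member that missed the threshold was not shown to be equal in both groups. Under TMM every chilling library lay above every control library in 93 members and below in none, where 24.7% and 26% of tested gene models did so. By column total the groups were apart in 16 members with chilling above and in 25 with chilling below, where 16.9% and 35.5% of tested gene models were.

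**Figure D4:**
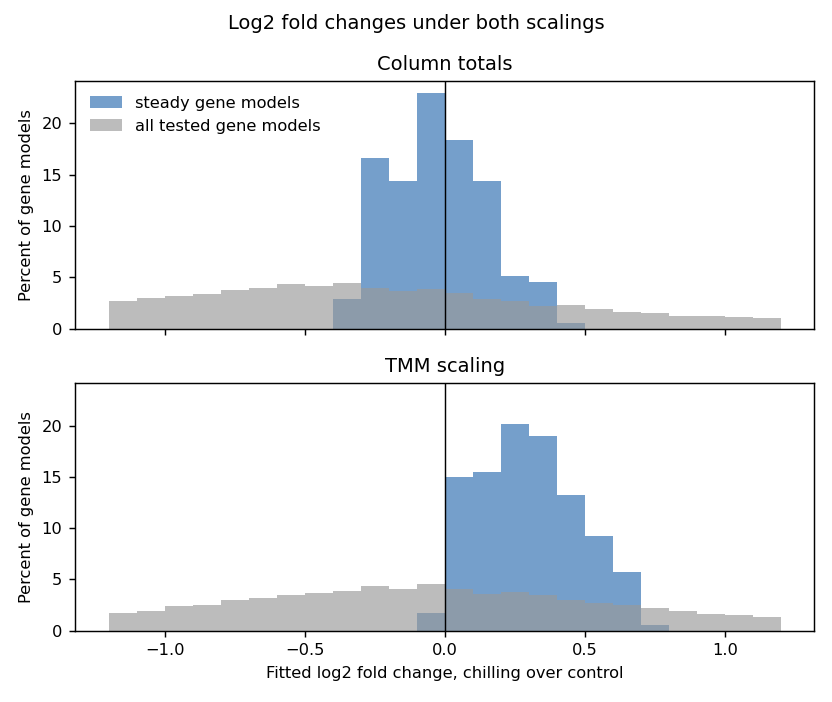
Fitted log2 fold changes (chilling over control) by column totals (top) and with TMM scaling (bottom), as percent of the 174 members and of the 19487 tested gene models in bins of 0.1; values beyond 1.2 on either side are not drawn. The members centre on -0.02 by column totals and on 0.29 with TMM scaling, and the tested gene models on -0.33 and -0.02.

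The largest log2 fold change of a member under TMM was 0.76 ± 0.17 (SE; edgeR adjusted p = 0.0208). By column total that gene model, whose identifier is not printed here, had 168, 181 and 173 CPM in chilling replicates 1 to 3, against 126, 138 and 121 in control replicates 1 to 3, all chilling libraries above all control libraries within a ratio of 1.49. Its TMM-scaled CPM averaged 194 ± 16.6 in chilling and 115 ± 4.94 in control libraries (SD, n = 3 each). On column totals its log2 fold change was 0.44 and edgeR gave an adjusted p of 0.101, the highest of 18 alternatives, which began at 5.52e-06 with DESeq2. It was called in 11 of the 18. gene.evm.model.3.661 had 180.4, 176 and 158 CPM in chilling replicates 1 to 3, against 141, 129 and 129 in control replicates 1 to 3, and a log2 fold change under TMM of 0.69 ± 0.19 (SE; edgeR adjusted p = 0.036). gene.evm.model.3.622 had 187, 174 and 182 CPM in chilling replicates 1 to 3, against 148, 138 and 135 in control replicates 1 to 3, and a log2 fold change under TMM of 0.69 ± 0.18 (SE; edgeR adjusted p = 0.0288). Both were called in 9 of 18 alternatives. gene.evm.model.4.320, the fourth by size of the log2 fold change, was not called by edgeR under TMM, and was called in 2 of 17 alternatives. The other 6 called members were gene.evm.model.45.417, gene.evm.model.64472.66, gene.evm.model.35.157, gene.evm.model.13.292, gene.evm.model.33.366 and gene.evm.model.88.114, named because they complete the count of 9, with log2 fold changes under TMM of 0.66, 0.67, 0.68, 0.60, 0.60 and 0.61. The count of 9 depended on which libraries were used. It fell to 0 or 1 when a library other than chilling replicate 3 was left out. Leaving out chilling replicate 1 gave 0, where 13.6% of tested gene models were called, leaving out chilling replicate 2 gave 0 (20.7% called) and leaving out chilling replicate 3 gave 14 (31.8% called). Leaving out control replicate 1 gave 0 (17.5% called), control replicate 2 gave 0 (13% called) and control replicate 3 gave 1 (23.8% called). At an unadjusted p under 0.05 these 6 fits held 9, 15, 44, 7, 9 and 17 members in the same order. With upper-quartile factors 1 member was called (33.2% of tested gene models), with the replicate number as a block 0 (18.1%; 9 at an unadjusted p under 0.05), and without both libraries numbered 3 there were 15 (30.4%).

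A ratio of 2 gene models in a library does not depend on how the library is scaled. The geNorm measure M, the mean over all other members of the SD of the log2 ratio with each, had a median of 0.22 among the 174 members, from 0.17 to 0.32. For the other 640 abundant gene models, measured against the same 174, the median was 0.47. M takes the counts that chose the members and is given as a description. The lowest M values were those of gene.evm.model.45.82, gene.evm.model.2.97, gene.evm.model.43.96 and gene.evm.model.6.139, at 0.168, 0.169, 0.171 and 0.171. The first 2 are also among the 6 with the lowest CPM ratio. gene.evm.model.43.96 had 131, 132 and 136 CPM in chilling replicates 1 to 3, against 152, 135 and 127 in control replicates 1 to 3. gene.evm.model.6.139 had 204, 222 and 207 CPM in chilling replicates 1 to 3, against 229, 216 and 193 in control replicates 1 to 3. In both, the chilling values lay inside the range of the control values by column total. On TMM-scaled CPM every chilling library lay above every control library in both, with ratios of 1.33 and 1.39. The 88 gene models steady by column total and by TMM had a median M of 0.21. Among the 15051 pairs of members, the ratio of the 2 gene models stayed within a span of 1.5 over the 6 libraries in 7348 (48.8%), and the widest span was 2.23. The closest pair was gene.evm.model.33.187 and gene.evm.model.7.184, whose CPM ratio was 0.480, 0.474 and 0.485 in chilling replicates 1 to 3, against 0.482, 0.470 and 0.484 in control replicates 1 to 3. The span of that ratio was 1.03, the narrowest of all pairs and picked for it.

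Steadiness was also read in libraries that the choice had not used. Each library was left out in turn, the limits were applied to the other 5, and CPM by column total was read in the sixth. Between 199 and 244 gene models were steady in 5 libraries. The 174 members were among them each time by construction, because a gene model steady in all 6 libraries is steady in any 5. They made up 71.3%, 79.5% and 75.0% of the list with chilling replicates 1 to 3 left out. With control replicates 1 to 3 left out they made up 85.3%, 87.4% and 73.4%. These shares vary only with the size of each 5-library list. The library left out lay within 1.5-fold of the geometric mean of the other 5 for 91.4%, 89.5% and 92.7% of these gene models in chilling replicates 1 to 3, against 96.6%, 99.0% and 90.7% in control replicates 1 to 3. Abundant gene models that were not steady in the 5 did so in 53.9%, 53.4% and 77.2% for chilling replicates 1 to 3, against 63.0%, 70.3% and 57.7% for control replicates 1 to 3. Lying within 1.5-fold of a mean in either direction is a looser limit than a highest to lowest ratio of 1.5. By that stricter limit, 71.3% to 87.4% of each 5-library list stayed steady, as given above. The share by the looser limit was higher for the steady gene models with each of the 6 libraries left out. The gap was narrowest for chilling replicate 3. The 6 choices share most of their libraries and are not independent. Pooled over the 6 lists, gene models steady in all 6 libraries made up 78.2% on column totals and 78.0% on TMM-scaled CPM. On TMM-scaled CPM the lowest share was 67.9%, without control replicate 3. Each pooled share has a fixed numerator per list, 174 on column totals and 199 on TMM-scaled CPM.

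**Figure D5:**
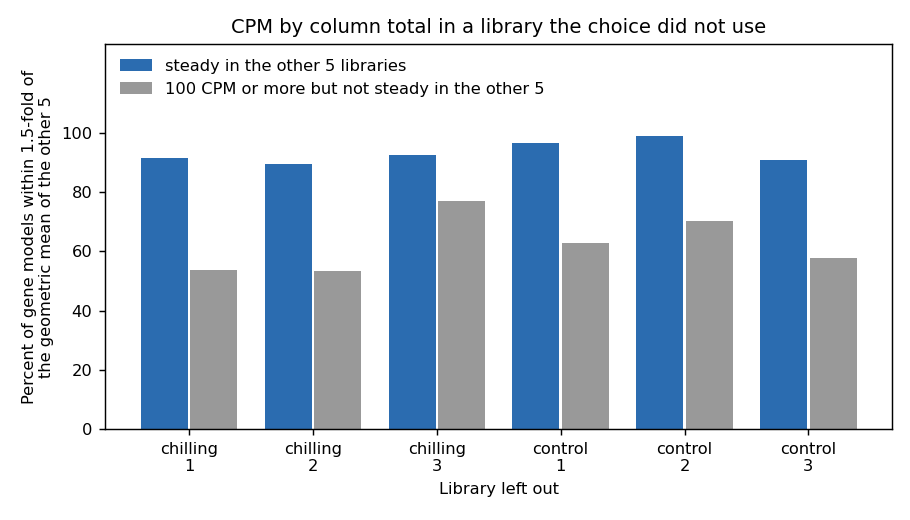
Percent of gene models whose CPM by column total in the library left out lay within 1.5-fold of the geometric mean of the other 5, for gene models steady in those 5 and for gene models at 100 CPM or more but not steady in them. The steady gene models reach 89.5% to 99.0% and the others 53.4% to 77.2%.

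Steadiness was also set within 1 temperature. By the same limits on the chilling libraries alone, 757 gene models were steady, and 374 of them (49.4%) were steady among the control libraries too. On the control libraries alone, 1036 were steady, of which 374 (36.1%) were steady among the chilling libraries. Steady over all 6 libraries were 174, which is 23.0% of the gene models chosen in chilling and 16.8% of those chosen in control. On TMM-scaled CPM, 867 gene models were steady in chilling, of which 47.2% were steady among the control libraries, and 873 were steady in control, of which 46.8% were steady among the chilling libraries. The gene models steady in both groups are the same whichever group is used to choose. The paired shares therefore differ only by how many gene models were steady in each group. Those numbers were 757 and 1036 on column totals and 867 and 873 on TMM-scaled CPM. No difference between shares was tested.

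Used as a scale, the members returned the column totals on which they were chosen. Library factors from their geometric mean averaged 0.992 ± 0.023 in chilling and 1.01 ± 0.041 in control libraries (SD, n = 3 each), and TMM factors averaged 0.897 ± 0.071 in chilling and 1.12 ± 0.065 in control libraries. The 199 gene models steady on TMM-scaled CPM gave 0.905 ± 0.087 in chilling and 1.11 ± 0.077 in control libraries. Scaled by the 174 members, edgeR called 35.8% of tested gene models, 12.2% higher and 23.6% lower in chilling, and 0 of the members, with 1 at an unadjusted p under 0.05. Scaled by the 199, it called 31.3%, 15.7% higher and 15.6% lower, and 7 of the members, against 16.2% and 14.6% with TMM.

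Just inside the limit of 1.5 were gene.evm.model.9.234, gene.evm.model.26.906 and gene.evm.model.32.329, each with a ratio that rounds to 1.5. gene.evm.model.26.906 had 279.7, 285 and 419 CPM in chilling replicates 1 to 3, against 358, 408 and 292 in control replicates 1 to 3. Just outside were gene.evm.model.30.184, gene.evm.model.2.189 and gene.evm.model.76.208, with ratios of 1.51, 1.51 and 1.51. gene.evm.model.30.184 had 113, 106 and 159 CPM in chilling replicates 1 to 3, against 143, 130.2 and 125 in control replicates 1 to 3, and its ratio under TMM was 1.45, inside the limit. At the floor, gene.evm.model.100.350 and gene.evm.model.9.597 had a lowest CPM of 100.3 and 101, and gene.evm.model.0.690 and gene.evm.model.98.2 missed it with 99.7 and 99.5. By identifier, members fell on 73 different first numbers, where the 814 abundant gene models fell on 125. The number 5 had the most members, 10, and held 29 of the abundant gene models. Consecutive identifiers occurred in 2 pairs of members and in 23 pairs of abundant gene models. The 2 pairs of members were gene.evm.model.36.67 with gene.evm.model.36.68 and gene.evm.model.64486.237 with gene.evm.model.64486.238. Their CPM ratios spanned 1.57 and 1.41 over the libraries. Whether consecutive numbers mean neighbouring genes is not given in the sources used here.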

How the data were processed

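RNA sequencing counts were analysed for 3 chilling and 3 control libraries. The authors deposited raw read counts in 1 table for 26139 gene models. Per the submitters' processing notes, FastQC, HISAT2 and featureCounts were used. Neither versions nor a genome build, annotation, strand setting or rule for reads with several matches is given in the sources used here, so near-identical copies and overlapping genes may share or lose reads. Columns were matched to titles, which gave the groups. All rows are gene models, and no library repeated another (chi-square per degree of freedom at least 98.2 within groups).

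CPM used column totals, from 27982493 to 41203847. TMM, median-of-ratios and upper-quartile factors came from edgeR 4.0.16 in R 4.3.3. The fit across all gene models was edgeR's quasi-likelihood F test (filterByExpr with a minimum count of 10 and 15 in total, TMM, robust, no term but group), adjusted by Benjamini-Hochberg over 19487 gene models. SE came from the F statistic. DESeq2 1.42.0 and limma-voom (limma 3.58.1) were alternatives, beside other scalings, filters, limits, a replicate block and leaving out libraries. Scripts were tested on simulated data.

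The members and lists were chosen with earlier results of these data known. Gene models named are the members with the 6 lowest CPM ratios, the 4 highest mean CPM, the 6 lowest values of the larger of both ratios, the 4 lowest M and the 4 largest log2 fold changes, and those next to the limits. The member with the largest log2 fold change is described without its identifier. The 6 other called members and the consecutive pairs were named after their values were seen.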

Additional observations from a re-analysis of the deposited data

How the results depend on the processing

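The number of members followed its limits. It was 504 at 50 CPM, 35 at 200 CPM, 29 with the highest value at most 25% above the lowest, and 419 at a ratio of 2, in place of 174. Other scalings, totals without the 100 most abundant gene models, thinning and a limit on the coefficient of variation gave 159 to 241, and leaving out 1 library gave 199 to 244. The 91 members within 1.5 under TMM became 138 with upper-quartile factors and 96 to 112 with 1 library left out. The members' median log2 fold change of 0.29 was -0.0235 with total counts, 0.12 with upper-quartile factors and -0.0011 when the libraries were scaled by the members, and 0.27 to 0.31 with 1 library left out. The 9 called members, all higher, became 0 with total counts and 0 when scaled by the members, 1 with upper-quartile factors, 49 with DESeq2 and 15 without both libraries numbered 3, again all higher, and 0 to 14 with 1 library left out. With the replicate block the count was 0, with 9 members at an unadjusted p under 0.05, in edgeR with fewer residual degrees of freedom. The labels do not state whether equal numbers pair libraries. Deviations from the group means correlated at 0.014, -0.010 and -0.045 for libraries numbered 1, 2 and 3. Each chilling library correlated best with a control library of another number. All these correlations were near 0, from -0.091 to 0.083, and deviations from a mean of 3 libraries are tied to each other. They therefore cannot decide whether libraries are paired. The causes of these moves were not tested beyond the construction of each alternative. Median M was 0.209 to 0.229 with 1 library left out. Scaling by the members or by the list on TMM-scaled CPM, M with 1 library left out, the choice within 1 group, other scalings for the count within 1.5 under TMM, and the fit without both libraries numbered 3 were chosen after seeing the data. With 3 libraries a group, no spread below that between libraries can be shown, and counting error adds little at these counts.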
